A study of Mus musculus with 5 samples.

Results

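The 10 genes described here encode feedback inhibitors of the ERK kinase cascade and the ETS transcription factors that the cascade induces: Spry1, Spry2, Spry4, Spred1, Spred2, Dusp4, Dusp6, Il17rd, Etv4 and Etv5. They were selected by gene name from the 49671 genes of the deposited count table, and all 10 were among the 12067 genes with enough counts to be tested. Their RNA was measured in the epiblast and visceral endoderm (VE) of single E6.75 mouse embryos of mixed strain background, from which the extra-embryonic ectoderm (ExE) had been dissected away. The 2 SO+ embryos were labelled WT, without Sox2Cre and with the genotype Oct4 fl/+, and the 3 SO- embryos were Sox2Cre+/- and Oct4 fl/-. Sox2Cre acts in the epiblast, so the floxed allele is removed there and not in the VE, which was sequenced together with it. The null allele of the SO- embryos was inherited, so their VE carried it as well and also differed in genotype from that of SO+ embryos. All 5 embryos carried a floxed allele, and only the SO- embryos carried Cre, so an effect of Cre itself cannot be told apart from loss of Oct4.

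Fibroblast growth factors (FGFs) activate receptor tyrosine kinases, which switch on RAS and then the kinases RAF, MEK and ERK. ERK signalling induces its own inhibitors: Sprouty and Spred proteins act at the level of RAS and RAF, the transmembrane protein Sef (Il17rd) restrains the receptor and ERK, and dual-specificity phosphatases remove phosphate from ERK. The PEA3 factors Etv4 and Etv5 are activators induced by the same signal, and transcripts of this group are widely used to read FGF/ERK activity in the gastrulating embryo, where FGF signalling is needed for mesoderm cells to leave the primitive streak.

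Library totals ranged from 27047148 to 27538119 counts in SO+ embryos and from 1117566 to 4191498 in SO- embryos. Levels are given as counts per 1e+06 counts of the library (CPM), on which 3 counts stand for 0.109 to 0.111 CPM in SO+ embryos and for 0.716 to 2.68 CPM in SO- embryos. These limits cover counting error only, since PCR copies were not marked. The second index was the same in both SO+ libraries and differed from that of the SO- libraries, so neither index nor depth can be told apart from genotype. Pou5f1, which encodes Oct4, measured 920.2 and 435 CPM in the SO+ pair, against 27.8, 12.5 and 43.7 CPM in SO- embryos 1 to 3, with a log2 fold change of -4.43 ± 0.33 (SE, adjusted p = 3.94e-05). Fold changes are log2 values of SO- over SO+ from edgeR's quasi-likelihood test, with p adjusted over all genes tested and a threshold of 0.05.

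Spry1, Spry4 and Il17rd rose in SO- embryos, by 1.77 to 2.10-fold, and no gene of the 10 fell past the threshold. The 3 higher calls among 10 genes stand beside 1.42% of all genes tested that were called higher, and the 0 lower calls beside 0.928% called lower. At an unadjusted p under 0.05, 6 of the 10 were higher, against 7.27% of genes tested, and 1 was lower, against 6.46%. DESeq2 called 4 of them higher, adding Dusp6, against 1.63% of the genes to which it gave an adjusted p, and called 0 lower, against 0.888%. In 6 genes every SO- embryo lay above both SO+ embryos, an arrangement seen in 13.9% of genes tested. In 1 gene, Etv5, every SO- embryo lay below both SO+ embryos, which held for 15.6% of genes tested. The median log2 fold change of the 10 was 0.47, with 8 of 10 above 0. Over all genes tested the median was -0.0019, with 49.7% above 0.

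**Figure D1:**
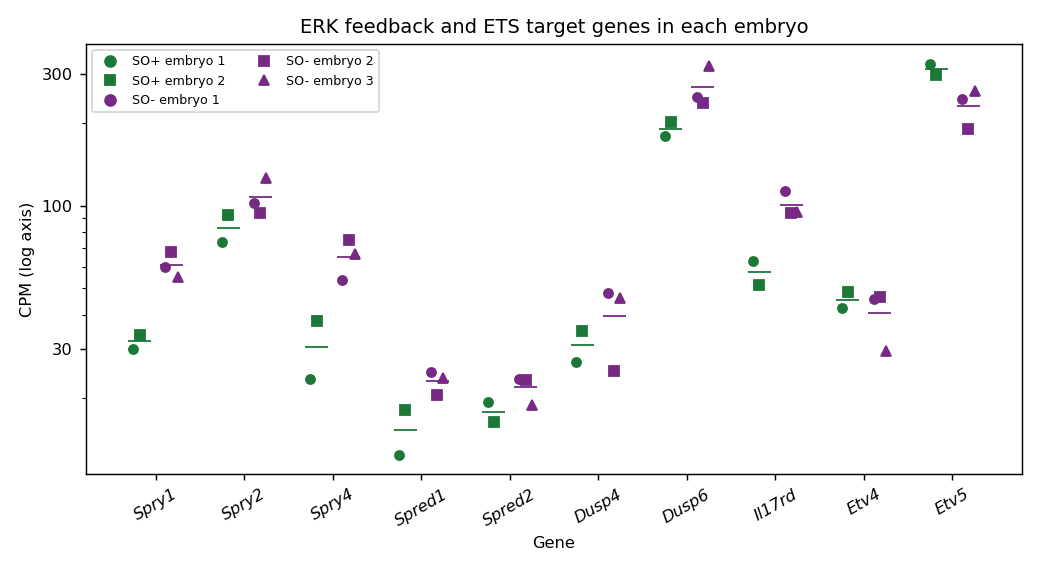
Level of each of the 10 genes in CPM (log axis) in 2 SO+ embryos (green) and 3 SO- embryos (purple), with the symbol giving the embryo number and the horizontal line the group mean. SO- embryos lie above SO+ embryos in Spry1, Spry2, Spry4, Spred1, Dusp6 and Il17rd, below them in Etv5, and overlap with them in Spred2, Dusp4 and Etv4.

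**Figure D2:**
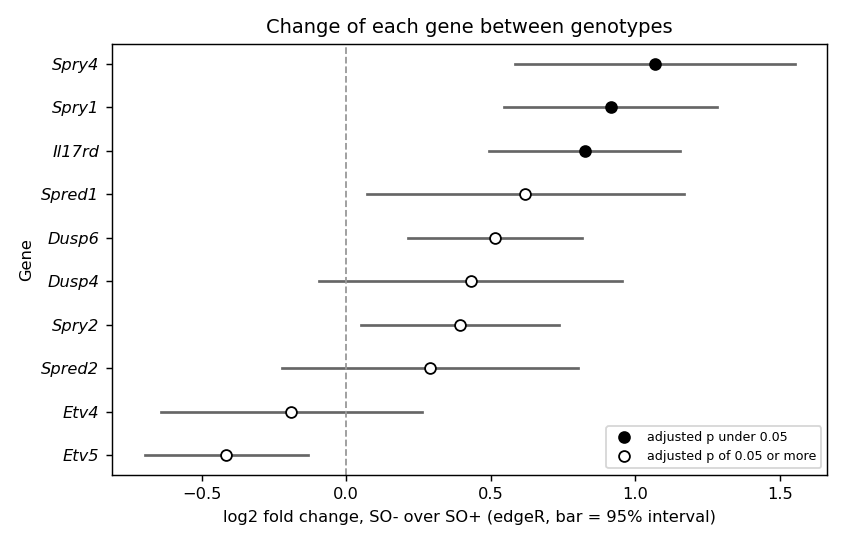
Log2 fold change of each gene, SO- over SO+, from edgeR, with its 95% interval as a bar. Filled points mark the genes with an adjusted p under 0.05 (Spry4 at 1.07, Spry1 at 0.91 and Il17rd at 0.83), and the intervals of Spred2, Dusp4 and Etv4 cross 0.

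Sequence before the transcription start is shown for 4 of these genes, because Spry1 and Il17rd passed the threshold and their fellow inhibitors Spry2 and Dusp6 did not by edgeR. ETS factors bind DNA at a GGAA core. Each run is read 5′ to 3′ on the gene's own strand of GRCm38.p6 from RefSeq promoters, ends before the start of the gene in both RefSeq and GENCODE, and has GGAA, or TTCC where the core lies on the other strand, in capitals. The windows are chr3:37639697-37639946 on the plus strand for Spry1, chr14:27038751-27038940 on the plus strand for Il17rd, chr14:105896820-105897069 on the minus strand for Spry2 and chr10:99262981-99263230 on the plus strand for Dusp6.
Spry1: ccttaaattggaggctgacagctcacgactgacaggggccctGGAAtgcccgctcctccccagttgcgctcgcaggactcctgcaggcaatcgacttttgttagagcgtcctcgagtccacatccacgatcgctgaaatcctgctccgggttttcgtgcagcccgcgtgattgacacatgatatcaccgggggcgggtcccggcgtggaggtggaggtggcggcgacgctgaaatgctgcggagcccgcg
Il17rd: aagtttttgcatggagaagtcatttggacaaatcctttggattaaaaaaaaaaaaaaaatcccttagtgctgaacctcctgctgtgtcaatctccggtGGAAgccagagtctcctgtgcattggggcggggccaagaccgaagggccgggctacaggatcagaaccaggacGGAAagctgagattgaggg
Spry2: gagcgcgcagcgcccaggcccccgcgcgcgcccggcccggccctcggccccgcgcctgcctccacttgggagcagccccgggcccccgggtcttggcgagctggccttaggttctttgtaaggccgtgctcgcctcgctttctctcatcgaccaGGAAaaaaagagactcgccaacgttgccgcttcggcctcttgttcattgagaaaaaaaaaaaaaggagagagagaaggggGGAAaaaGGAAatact
Dusp6: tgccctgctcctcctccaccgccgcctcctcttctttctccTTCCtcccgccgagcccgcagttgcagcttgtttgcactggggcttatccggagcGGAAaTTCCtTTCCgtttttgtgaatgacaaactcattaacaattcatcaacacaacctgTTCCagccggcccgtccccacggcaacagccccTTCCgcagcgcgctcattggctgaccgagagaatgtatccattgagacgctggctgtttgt
The core occurs once in the Spry1 stretch, 2 times in that of Il17rd, 3 times in that of Spry2 and 6 times in that of Dusp6. The Il17rd stretch is 190 bases long and the others 250, so its count cannot be set directly against theirs.

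RefSeq promoters were matched for 7 of the 10 genes, Spry4, Dusp4 and Etv4 being the others, and Etv5 had 2 start sites, which made 8 promoters. In the 250 bases before the RefSeq start, both strands counted, GGAA occurred once in Spry1, 3 times in Spry2, 4 times in Spred1, 7 times in Spred2, 6 times in Dusp6 and 4 times in Il17rd. At Etv5 it occurred 0 times before one start site and 4 times before the other. It was thus present in 7 of 8 promoters, against 93.4% of 32851 mouse promoters of the same length, with a median of 3 per promoter. The longer core CCGGAA, each match of which also counts as a GGAA, was in 0 of the 8 and in 12.03% of all promoters. The octamer ATGCAAAT, a sequence bound by Oct4, was in 0 of the 8 and in 1.60% of all promoters. These are matches of letters in a short window and not measured binding.

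The Sprouty genes encode membrane-associated inhibitors that receptor signalling induces, and 2 of the 3 measured here rose in SO- embryos. Spry1 (chr3:37639947-37644598, GRCm38) measured 30.2 and 33.9 CPM in the SO+ pair, against 60.0, 68.0 and 55.1 CPM in SO- embryos 1, 2 and 3. The lowest SO- embryo was well above the higher SO+ embryo. The means were 32.1 ± 2.61 CPM (SD, n = 2) and 61.0 ± 6.51 CPM (SD, n = 3), which gave a log2 fold change of 0.91 ± 0.17 (SE, 95% interval 0.55 to 1.28, edgeR adjusted p = 0.0123). Of Spry1's exon bases, 710 (24.4%) lie opposite exons of Gm42922, which had 2 counts in SO+ embryo 1 and 0 in the other embryos.

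Spry4, on chromosome 18, showed the largest log2 fold change of the 10 and also the largest ratio between the SO+ embryos. It measured 23.5 and 38.0 CPM in the SO+ pair, against 53.7, 75.2 and 66.8 CPM in SO- embryos. The groups did not overlap, with means of 30.7 ± 10.3 CPM (SD, n = 2) and 65.2 ± 10.8 CPM (SD, n = 3). The log2 fold change was 1.07 ± 0.22 (SE, 95% interval 0.58 to 1.55, edgeR adjusted p = 0.0256).

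Spry2 (chr14:105891947-105896819), the Sprouty gene with the highest level per length, had a smaller fold change. It measured 74.0 and 92.4 CPM in the SO+ pair, against 102, 94.0 and 126 CPM in SO- embryos. SO- embryo 2 was only just above SO+ embryo 2, and the exact Poisson 95% interval of its 105 counts, 76.8 to 113.7 CPM, includes the SO+ value. Its log2 fold change was 0.39 ± 0.16 (SE, 95% interval 0.05 to 0.74, edgeR adjusted p = 0.274).

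Il17rd (chr14:27038941-27107286) encodes Sef, a transmembrane antagonist of FGF signalling, and had the smallest p of the 10. It measured 63.1 and 51.5 CPM in the SO+ pair, against 113, 94.0 and 94.95 CPM in SO- embryos. SO- embryos were all above SO+ embryos, and SO- embryos 2 and 3 were nearly equal. The means were 57.3 ± 8.18 CPM (SD, n = 2) and 100.5 ± 10.6 CPM (SD, n = 3), which gave a log2 fold change of 0.83 ± 0.15 (SE, 95% interval 0.50 to 1.16, edgeR adjusted p = 0.0120).

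The 3 calls depended on which embryos were included, while the direction of each was kept when any embryo was left out. Spry1 had an adjusted p of 0.0653 without SO+ embryo 1, 0.143 without SO- embryo 1 and 0.137 without SO- embryo 2. The same omissions gave 0.108, 0.122 and 0.259 for Spry4, which also missed the threshold without SO- embryo 3 (adjusted p = 0.0915). Il17rd missed it without SO- embryo 1 (adjusted p = 0.177) and without SO- embryo 2 (adjusted p = 0.121). Without SO+ embryo 2 all 3 passed, and Dusp6 did as well (adjusted p = 0.0315). By limma-voom, only Spry1 passed (adjusted p = 0.0452), with 0.151 for Spry4 and 0.0547 for Il17rd.

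The phosphatase Dusp6, which acts in the cytoplasm and is selective for ERK, had the highest level per length of the inhibitors. Dusp6 (chr10:99263231-99267489) measured 179.5 and 201 CPM in the SO+ pair, against 248, 236 and 322 CPM in SO- embryos. All SO- embryos were above the SO+ embryos, with SO- embryo 3 the highest. The means were 190.2 ± 15.1 CPM (SD, n = 2) and 269 ± 46.6 CPM (SD, n = 3). The log2 fold change was 0.51 ± 0.14 (SE, 95% interval 0.21 to 0.82), with an edgeR adjusted p of 0.0820 and a DESeq2 adjusted p of 0.0342.

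Dusp4 (chr8:34807297-34819894), a nuclear phosphatase of the same family, did not separate the groups. It measured 27.0 and 35.1 CPM in the SO+ pair, against 48.1, 25.1 and 46.3 CPM in SO- embryos. SO- embryo 2 was the lowest of all 5, on 28 counts with an exact Poisson 95% interval of 16.6 to 36.2 CPM, which contains both SO+ values. Dusp4 had a log2 fold change of 0.43 ± 0.24 (SE, 95% interval -0.09 to 0.96, edgeR adjusted p = 0.483).

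The Spred genes, which encode Sprouty-related inhibitors that bring neurofibromin to RAS, had the lowest levels per length of the 10. Spred1 (chr2:117121374-117182279) measured 12.5 and 18.1 CPM in the SO+ pair, against 24.9, 20.6 and 23.6 CPM in SO- embryos. The groups did not overlap, but the 23 counts of SO- embryo 2 have an exact Poisson 95% interval of 13.05 to 30.9 CPM, which includes SO+ embryo 2. The log2 fold change was 0.62 ± 0.25 (SE, 95% interval 0.07 to 1.17, edgeR adjusted p = 0.283). Spred2 (chr11:19924375-20024026) measured 19.3 and 16.3 CPM in the SO+ pair, against 23.5, 23.3 and 18.8 CPM in SO- embryos. SO- embryo 3 lay between the SO+ embryos, and the log2 fold change was 0.29 ± 0.24 (SE, 95% interval -0.22 to 0.80, edgeR adjusted p = 0.677).

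The PEA3 factors, the activators of the group, were the only members with fold changes below 0, and neither passed the threshold. Etv5 (chr16:22381309-22439719) measured 328 and 297 CPM in the SO+ pair, against 243, 189.7 and 260.1 CPM in SO- embryos. SO- embryo 2 was the lowest, and no SO- embryo reached an SO+ embryo. The means were 313 ± 22.01 CPM (SD, n = 2) and 231 ± 36.7 CPM (SD, n = 3). Etv5 had a log2 fold change of -0.41 ± 0.13 (SE, 95% interval -0.70 to -0.13), with an unadjusted p of 0.00759 and an adjusted p of 0.147 by edgeR.

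Etv4 (chr11:101769742-101785371) measured 42.5 and 48.7 CPM in the SO+ pair, against 45.7, 46.5 and 29.6 CPM in SO- embryos. SO- embryo 3 was low, while the other SO- embryos lay between the SO+ embryos. The log2 fold change was -0.19 ± 0.21 (SE, 95% interval -0.64 to 0.26, edgeR adjusted p = 0.786). Its sign rested on SO- embryo 3, since the log2 fold change was 0.009 without that embryo.

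Summed within each role, the inhibitors and the ETS factors lay on opposite sides. The Sprouty genes together measured 128 and 164 CPM in the SO+ pair, against 216, 237 and 248 CPM in SO- embryos. Dusp4 and Dusp6 together measured 207 and 236 CPM against 296, 261 and 368 CPM, and Spred1 and Spred2 together 31.7 and 34.4 CPM against 48.4, 43.8 and 42.5 CPM. Etv4 and Etv5 together measured 371 and 346 CPM in the SO+ pair, against 289, 236 and 290 CPM in SO- embryos. None of these sums overlapped between genotypes, although Dusp4, Spred2 and Etv4 did as single genes. Of single genes tested, 13.9% had every SO- embryo above both SO+ embryos and 15.6% had every SO- embryo below them. Since Etv5 and Dusp6 dominate their sums, these sums are descriptions of the genes above and were not tested.

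Per length, the genes at the top exchanged places. Levels divided by exon length are given as CPM per kb of exon, using the union of annotated exons. In both SO+ embryos Etv5 was first, at a mean of 76.2 ± 5.36 CPM per kb (SD, n = 2), and Dusp6 second, at 60.7 ± 4.83. In all SO- embryos Dusp6 was first, at a mean of 85.8 ± 14.9 CPM per kb (SD, n = 3), with Etv5 at 56.3 ± 8.95. Spry2 followed by mean in both genotypes, at 39.9 ± 6.24 and 51.5 ± 8.08 CPM per kb. Its range overlapped that of Etv5 in SO- embryos.

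In SO+ embryos the order then ran through Etv4 (14.7 CPM per kb), Dusp4 (11.3), Spry1 (11.04), Spry4 (6.46), Il17rd (5.22), Spred2 (3.85) and Spred1 (2.25). The ranges of Dusp4 and Spry1 overlapped, as did those of Spry4 and Il17rd, and all other neighbours were apart. In SO- embryos it ran through Spry1 (21.002 CPM per kb), Dusp4 (14.5), Spry4 (13.7), Etv4 (13.1), Il17rd (9.15), Spred2 (4.73) and Spred1 (3.40). There, Dusp4 overlapped with Spry4, Spry4 with Etv4, and Etv4 with Il17rd. Spry1 moved from place 6 to place 4 and Etv4 from place 4 to place 7.

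**Figure D3:**
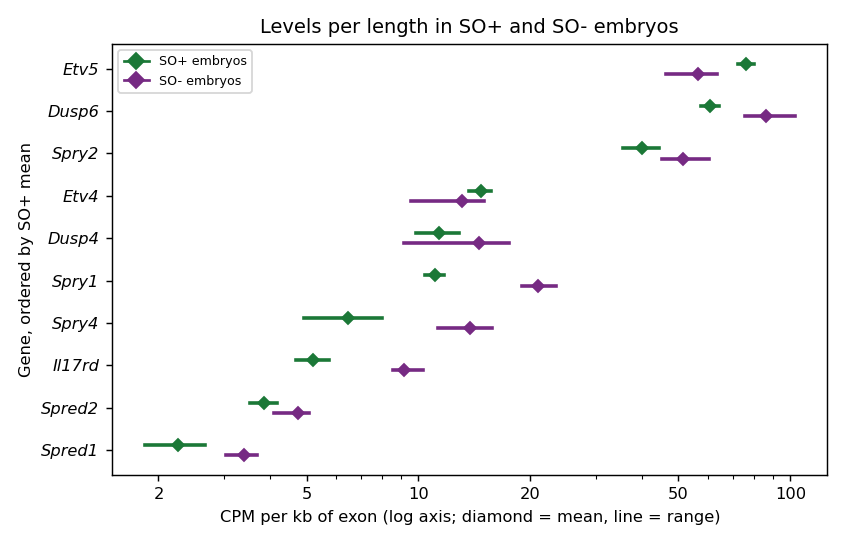
Level per length of each gene in CPM per kb of exon (log axis), with the mean as a diamond and the range over embryos as a line, for 2 SO+ embryos (green) and 3 SO- embryos (purple). Etv5 leads at 76.2 CPM per kb in SO+ embryos and Dusp6 at 85.8 in SO- embryos, and the Spred genes are lowest in both.

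Ratios of related genes inside one embryo do not depend on library size or scaling. Counts of Spry1 per count of Spry2 were 0.409 and 0.367 in the SO+ pair, against 0.587, 0.725 and 0.436 in SO- embryos. The ratio was higher in every SO- embryo, by 0.56 on the log2 scale (exact permutation test, two-sided p = 0.2, adjusted p = 0.6 over 6 ratios). Counts of Spry4 per count of Spry2 were 0.317 and 0.411 in the SO+ pair, against 0.525, 0.801 and 0.529 in SO- embryos. The difference was 0.75 on the log2 scale (two-sided exact permutation test, p = 0.1, the least that 2 embryos against 3 allow, adjusted p = 0.6).

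The other 4 ratios overlapped between genotypes. Their log2 differences were -0.19 for Spry1 over Spry4, 0.32 for Spred1 over Spred2, -0.17 for Dusp4 over Dusp6 and 0.26 for Etv4 over Etv5, with exact permutation p from 0.5 to 0.7. Etv4 over Etv5 ranged more widely among SO- embryos, with 0.188, 0.247 and 0.114 counts of Etv4 per count of Etv5 in embryos 1, 2 and 3, than between the SO+ embryos, at 0.130 and 0.164.

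**Figure D4:**
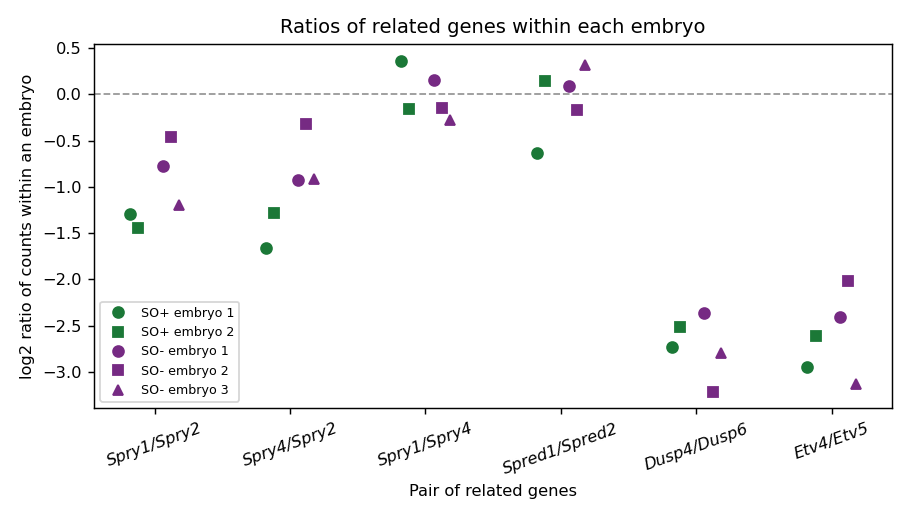
Log2 ratio of the counts of 2 related genes inside each embryo, in 2 SO+ embryos (green) and 3 SO- embryos (purple). Spry1/Spry2 and Spry4/Spry2 are higher in every SO- embryo, by 0.56 and 0.75 in the mean, and the other 4 ratios overlap.

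Across the 5 embryos, the pair of these genes with the most similar profile was Spry2 and Dusp6, with a root mean square difference of 0.0806 between their log2 CPM, each centred on its own mean. Spry1 differed from Il17rd by 0.211 and from Spry4 by 0.237 on that measure. Over 9150 genes averaging 3 or more in log2 CPM, the profiles nearest to Il17rd were those of Rab38 (0.0727), Hist1h4d (0.0797) and Erbin (0.0867). Hist1h4d is a histone gene with near-identical copies, so its counts are uncertain.

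Among paralogs of the 10 genes, Dusp9 rose, beside 1.42% of all genes tested, and 10 others tested did not pass the threshold. Dusp9, an X-linked gene for an ERK-selective phosphatase like Dusp6, measured 32.5 and 60.6 CPM in the SO+ pair, against 137, 162 and 155 CPM in SO- embryos. Every SO- embryo was more than the SO+ pair summed, and the log2 fold change was 1.70 ± 0.22 (SE, edgeR adjusted p = 0.0013). The list held 16 genes, of which 11 were tested, with 5 above 0 and a median log2 fold change of -0.03. Spry3, Dusp2, Dusp8, Il17rb and Il17re had too few counts to be tested.

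Upstream, FGF ligands and their receptors and co-receptors held 3 and 1 higher calls, beside the 1.42% of all genes tested that were called higher. Of 13 FGF ligands, 7 were tested and 3 rose: Fgf8 (log2 fold change 1.26), Fgf10 (1.26) and Fgf17 (1.84), with a median of 0.38 over the 7. In 2 other ligands, neither of them called, every SO- embryo lay below both SO+ embryos, which held for 15.6% of genes tested. Of 15 receptors and co-receptors, 13 were tested and 1 rose, the X-linked glypican gene Gpc3, at 542 and 625 CPM in the SO+ pair, against 918, 902 and 722 CPM in SO- embryos (log2 fold change 0.54 ± 0.12, SE, edgeR adjusted p = 0.0313). The median of that list was 0.12.

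Neither list inside the cell, between receptor and ERK, held a call, beside 1.42% of all genes tested called higher and 0.928% lower. Of 18 adaptors and RAS regulators, 16 were tested, with a median log2 fold change of 0.05. The smallest p there belonged to Rasal2, a RAS GTPase-activating protein (log2 fold change 0.63, edgeR adjusted p = 0.187), and to Rasa3, another (-1.45, adjusted p = 0.296). Rasa3 had only 4, 2 and 7 counts in SO- embryos 1, 2 and 3. Of 19 genes of the RAS, RAF, MEK and ERK tier, 17 were tested, with a median of -0.0037. Pea15a, whose product holds ERK in the cytoplasm, came nearest (log2 fold change 0.58, edgeR adjusted p = 0.0605), followed by Map2k1, which encodes MEK1 (-0.32, adjusted p = 0.157).

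Downstream, Etv2 was the single call among ETS factors and Cic, and calls among other ERK targets were in the lower direction. Etv2, a factor of blood and vessel progenitors, measured 2.54 and 1.96 CPM in the SO+ pair, against 11.9, 9.84 and 7.16 CPM in SO- embryos (log2 fold change 2.09 ± 0.47, SE, edgeR adjusted p = 0.0348). The SO- levels of Etv2 rest on 49, 11 and 30 counts. Of 16 ETS factors and Cic 13 were tested, with a median of -0.07, and the 1 higher call stands beside 1.42% of all genes tested. Of 25 immediate early genes and other targets 18 were tested, with a median of 0.37. In that list 2 fell, both of them cell growth genes, beside 0.928% of all genes tested.

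The cyclin gene Ccnd1 measured 168 and 150.3 CPM in the SO+ pair, against 96.5, 99.3 and 98.1 CPM in SO- embryos (log2 fold change -0.70 ± 0.12, SE, edgeR adjusted p = 0.0075). Mycn, which encodes a MYC family factor, measured 139 and 154 CPM against 78.6, 73.4 and 89.2 CPM (-0.85 ± 0.13, SE, edgeR adjusted p = 0.0043). Both genes were lower in 3 of 3 SO- embryos. Over the 94 pathway genes tested apart from the 10, 6 rose and 2 fell, beside 1.42% and 0.928% of all genes tested. Of the 94, 52 were above 0, beside 49.7% of all genes tested. The median log2 fold change of the 94 was 0.09, against 0.47 for the 10 and -0.0019 for all genes tested.

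**Figure D5:**
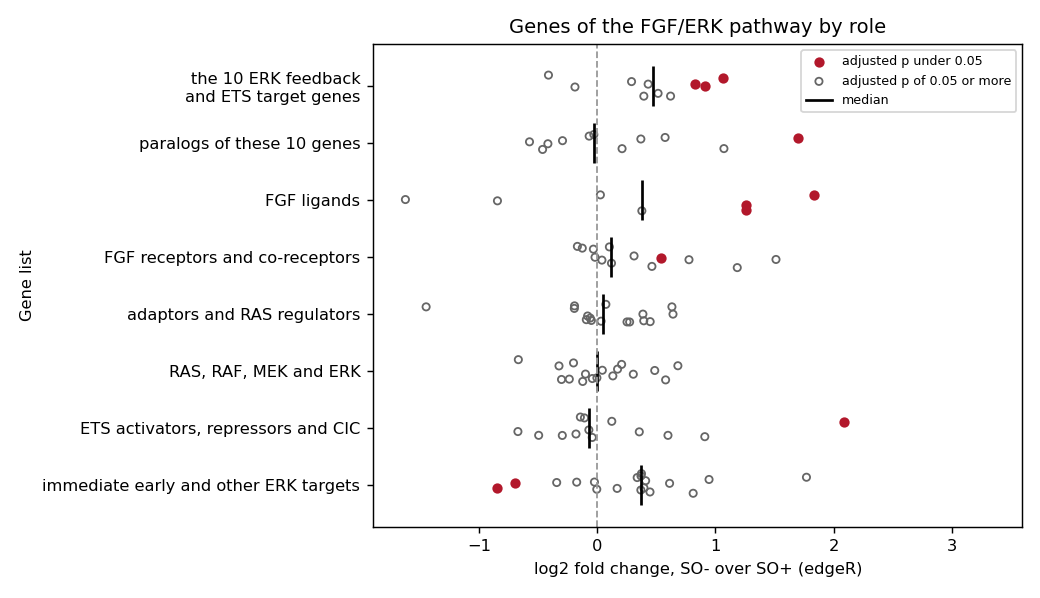
Log2 fold change, SO- over SO+, of the tested genes of each pathway list, with filled red points for an adjusted p under 0.05 and a vertical line at the median of the list. The median is 0.47 for the 10 feedback and ETS target genes and -0.0037 for the RAS, RAF, MEK and ERK tier, and the only called points below 0 are Ccnd1 and Mycn.

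Cell type markers also differed between genotypes. Calls among the markers stand beside 1.42% of all genes tested called higher and 0.928% called lower. In these bulk samples, fewer cells of a type and less RNA per cell cannot be told apart. The summed level of 10 epiblast markers was 5472 to 6825 CPM in the SO+ pair, against 2520 to 3662 CPM in SO- embryos. Of the 10, 4 were called lower, the deleted Pou5f1 among them, and the median log2 fold change was -0.62. The DNA methyltransferase gene Dnmt3b made up most of that sum, at 3983 and 3263 CPM in the SO+ pair, against 1708, 1447 and 2286 CPM in SO- embryos. Fgf5, Sox2 and Epha4 had log2 fold changes above 0 (0.38, 0.56 and 0.18), none of them past the threshold.

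The sum of 15 VE markers was 3043 to 3294 CPM in the SO+ pair, against 4566, 4583 and 2967 CPM in SO- embryos 1, 2 and 3. Of the 15, 13 had a log2 fold change above 0, with a median of 0.39, and 1 was called higher. The 10 feedback and ETS target genes had 8 above 0 and a median of 0.47. Their summed level was 800 and 832 CPM in the SO+ pair, against 962, 872 and 1044 CPM in SO- embryos 1, 2 and 3. SO- embryo 3 was the highest of all embryos for the sum of the 10 genes and the lowest for that of the VE markers. Dusp6 (322 CPM in that embryo) and Etv5 (260.1 CPM), neither called by edgeR, weigh most in the former sum. Among SO- embryos, embryo 3 was the lowest for Spry1 (55.1 CPM) but not for Spry4 (66.8 CPM) or Il17rd (94.95 CPM).

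The sum of 12 ExE markers was 23.9 to 30.1 CPM in the SO+ pair, against 47.2 to 69.8 CPM in SO- embryos. Most of that difference came from the 2 markers called higher. Hand1, for example, measured 1.09 and 2.74 CPM in the SO+ pair, against 13.5, 24.2 and 11.9 CPM in SO- embryos. Of the 7 tested, 4 were above 0, with a median log2 fold change of 0.20, and 2 were called higher, with Hand1, also a mesoderm gene, among them. Elf5 and Esrrb, defining genes of ExE, had their highest levels in different genotypes. Elf5 reached 2.62 CPM in SO- embryo 3, on 11 counts, against 0.11 and 0.18 CPM in the SO+ pair. Esrrb reached 0.98 CPM in SO+ embryo 1. The sum of 11 nascent mesoderm markers was 297 to 547 CPM in the SO+ pair, against 298 to 484 CPM in SO- embryos, with 1 of 9 tested called higher, 6 above 0 and a median log2 fold change of 0.39. Markers of decidua, blood and immune cells summed to 8.95 to 13.3 CPM over all embryos, with 7 of 13 at 0 throughout. The part of these markers in the levels of the 10 genes was not tested.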

How the data were processed

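RNA of the epiblast and VE of 2 SO+ and 3 SO- embryos, grouped by the labels' genotypes, was amplified by SmartSeq2 from 1 ng of input with 15 pre-amplification cycles. The authors removed adapters, used STAR to align reads to GRCm38/mm10 and HTSeq to count them on Ensembl genes, and deposited raw counts without normalization. The strand setting and any removal of duplicate reads are not given in the sources used here, so reads of overlapping genes may be divided in unknown ways. Litters are not given, so p-values measure the spread between these embryos only.

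Counts were tested with edgeR 4.0.16 in R 4.3.3 (the quasi-likelihood F test for genotype alone, after filterByExpr and TMM scaling, with Benjamini-Hochberg adjustment over 12067 genes). Each SE is the size of the log2 fold change over the square root of its F. CPM were not TMM scaled, and all TMM factors lay between 0.993 and 1.006. Exon lengths and positions came from GENCODE M21, which matched 99.31% of gene IDs, and promoters from RefSeq on GRCm38.p6. Ratios had 0.5 added to each count, on the log2 and the linear scale alike. Scripts were tested on simulated data.

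Alternatives were DESeq2 1.42.0, limma-voom (limma 3.58.1), other scalings, filters and spread estimates, autosomal genes alone, thinned libraries, the replicate number as a block and each embryo left out. Removal of trends with GC content or exon length was added after seeing the data. The 10 genes and all lists were chosen with earlier results of these data known. Genes named are the 10, Pou5f1, pathway genes with an adjusted p under 0.05, the 2 smallest p in each pathway list without one, and the 3 profiles nearest to the member with the smallest p. Markers were named after their values were seen, and 1 marker is not reported here by name.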

Additional observations from a re-analysis of the deposited data

How the results depend on the processing

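The 10 genes included 3 called by edgeR, of 283 genes called in all. Limma-voom called 1 of the 10 and 91 genes in all, and thinning all libraries to the smallest (median of 10 draws) called 1 of the 10, Spry4. Leaving out each embryo gave 0 to 4 calls among the 10 and 35 to 573 in all. The 0 fell without SO- embryo 1 and without SO- embryo 2, while 2 of the 10 were called without SO- embryo 3. The reason for this difference was not tested. With the replicate block, 4 of the 10 were called, Etv5 being added (adjusted p = 0.00143), and 929 genes in all. Only 2 pairs share a number, and their deviations correlated at 0.0077 and 0.115, so the numbers were not taken to pair embryos. DESeq2, other scalings, filters and spread estimates, autosomal genes, thinned SO+ libraries and removal of GC or length trends called 3 or 4 of the 10.

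Etv4 reversed with the replicate block (log2 fold change 0.034) and without SO- embryo 3, ranging from -0.3378 to 0.009 over the embryos left out. The other 9 genes kept their direction under all 19 alternatives. When each embryo was left out, the log2 difference ranged from -0.4535 to 0.0748 for Spry1 over Spry4, which reversed without SO+ embryo 1, from -0.07 to 0.7086 for Spred1 over Spred2, which reversed without SO+ embryo 1, and from -0.3805 to 0.0456 for Dusp4 over Dusp6, which reversed without SO- embryo 2. The cause was not tested. Depth limits Spred1, Spred2 and Dusp4 most, with 23 to 28 counts in SO- embryo 2.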
